A study of Mus musculus with 60 samples.

Results

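The kidney transcriptome of old mice was described by setting the 5 kidney libraries that received no doxycycline against the 24 untreated libraries of liver, lung, skeletal muscle, skin and spleen from the same series. Members were chosen by label alone: 5 of the 60 libraries in all are untreated kidney. They were compared with 5 libraries each of liver, lung, muscle and spleen and with 4 of skin. A further untreated skin library, 4F skin replicate 1, was left out of every comparison because it held kidney transcripts at 2.32% of its scaled counts. The series asks what long-term cyclic induction of reprogramming factors does to old tissues; none of that treatment had been given to the mice of these 29 libraries.

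The 4F mice are C57BL/6 mice heterozygous for a cassette of the factors Oct4, Sox2, Klf4 and Myc, which doxycycline can switch on, and for the rtTA transactivator at the Rosa26 locus that it needs. Their 3 kidney libraries came from untreated mice of 22 months, of which replicates 1 and 2 were female and replicate 3 was male. The 2 B6 kidney libraries came from untreated C57BL/6 males without the cassette, of 25 months by the sample labels and 26 months by the series text. Each other tissue had the same makeup apart from the skin library left out. The treated libraries, used only for side-by-side values, came from 4F mice of 22 months that drank 1 mg/ml doxycycline for 2 days in each week, with 5 days off, over 10 months, and from B6 males of 25 months given doxycycline over 5 months. No label says that libraries of a tissue came from separate animals, so p-values measure the spread between these libraries, which may be technical in part. Values are read counts per gene scaled to counts per 1000000 (CPM) by TMM, and kidney values are given throughout in the order 4F replicates 1, 2 and 3 and then B6 replicates 1 and 2.

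The kidney filters plasma at the glomerulus, where podocytes wrap the capillaries, and then reworks the filtrate along a tubule of successive cell types. The proximal tubule takes back sugars, amino acids, phosphate and filtered protein and makes glucose. The loop of Henle and distal convoluted tubule recover salt and divalent cations, and the collecting duct sets water, potassium and acid output under hormonal control. The organ also secretes renin and activates vitamin D. In bulk tissue RNA, fewer cells of a type and less RNA per cell cannot be told apart.

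The 29 libraries held 18517963 to 42569314 counts each, and the kidneys 19616622 to 36204450. The label was checked against 4 defining genes of kidney. Kap, an androgen-responsive protein of the proximal tubule, read 9720, 1060, 22600, 17100 and 3040 CPM. Lrp2, the endocytic receptor megalin, read 2850, 1270, 2100, 2600 and 1430 CPM. Its partner receptor cubilin, Cubn, read 552, 253, 488, 583 and 435 CPM, and the collecting-duct water channel Aqp2 read 151, 1050, 388, 272 and 195 CPM. All 5 kidneys lay above all 24 other libraries for each of the 4 genes. The highest other library was a lung for Lrp2, at 93.8 CPM, and 4F skin replicate 3 for Kap (70.8 CPM), Cubn (4.09 CPM) and Aqp2 (0.918 CPM). That skin library was also the highest outside the kidney for many, though not all, proximal tubule genes, with 35 CPM of Slc34a1 and 12.2 CPM of Miox. It stayed in the comparisons, and results that rest on it are also given without it. Another 5 libraries stood apart in earlier results of these data, 4F muscle replicate 3, 4F lung replicate 2, 4F spleen replicate 2, B6 liver replicate 2 and B6 spleen replicate 2, and the number of kidney-elevated genes is given without them too. In the skin library left out, Kap read 2830 CPM, Umod 550 CPM and Lrp2 177 CPM. With that library kept, the smallest log2 fold change of Kap was 4.17 (adjusted p 0.0853) in place of 9.23 (SE 2.36, adjusted p 0.00228), and without 4F skin replicate 3 it was 11.75. Summed over lists, markers of lung came to 1.27 to 5.9 CPM in kidney against 24100 to 43800 in lung, of muscle to 1.4 to 9.03 CPM against 140000 to 254000, of skin to 11.3 to 16.8 CPM, of spleen to 3.41 to 13 CPM and of adrenal gland, which lies on the kidney, to 3.76 to 11.5 CPM. Higher sums were read for liver markers, at 203 to 1430 CPM against 46100 to 209000 in liver, for fat genes, at 111 to 464 CPM, and for plasma and B-cell genes, at 2150 to 6080 CPM. Within the liver sums of 203, 432, 1380, 1310 and 1430 CPM, the gene Cyp2e1 alone read 106, 176, 1260, 1200 and 1230 CPM.

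A gene was called when its Benjamini-Hochberg adjusted p in edgeR's quasi-likelihood test was under 0.05 and its fold change was at least 4 (log2 of 2). Of 20576 genes tested, 2774 (13.5%) were higher in kidney than in liver and 1841 (8.95%) were lower. Against lung, 2211 (10.7%) were higher and 3054 (14.8%) lower. Against skeletal muscle the numbers were 3490 (17%) higher and 2004 (9.74%) lower, against skin 2400 (11.7%) and 2410 (11.7%), and against spleen 3370 (16.4%) and 2969 (14.4%). The balance of higher and lower calls depended on the scaling, most against liver and muscle. With libraries scaled by total counts in place of TMM, 3872 genes were higher and 1266 lower than in liver (75.4% higher, against 60.1% with TMM), and 5106 higher and 1265 lower than in muscle (80.1% against 63.5%). Against lung the share of calls that were higher was 34.1% (42% with TMM), and against skin 51.8% (49.9%). Against spleen the balance reversed, with 2991 higher and 3288 lower (47.6% higher, against 53.2% with TMM). The median log2 fold change of all genes with library totals moved to 0.66 against liver and 0.86 against muscle. The changes named below are therefore relative to the TMM scale.

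A set of 627 genes (3.05% of those tested) was higher in kidney than in each of the 5 tissues. The smallest of a gene's 5 log2 fold changes, its margin over the nearest tissue, had quartiles of 2.63, 3.74 and 6.15 over the set, and 91 genes (14.5% of the set) exceeded every tissue by a log2 fold change of at least 8. These 627 genes took 15.8, 13.4, 17.7, 16.3 and 14.1% of the scaled counts in the 5 kidneys. Their share was 0.285 to 0.464% in liver, 0.615 to 0.906% in lung, 0.175 to 0.284% in muscle, 0.359 to 0.506% in skin and 0.33 to 0.394% in spleen, a gap that the choice of the genes on these same libraries fixed. The nearest tissue was liver for 160 genes, skin for 160, lung for 148, spleen for 95 and muscle for 64. Without 4F skin replicate 3, 664 genes met the criteria, of which 616 were shared with the 627. The nearest tissue was then skin for 99 and liver for 193, and the median margin was 3.87. Without the 5 libraries that stood apart, 655 genes met the criteria and 596 were shared with the 627. With 4F skin replicate 1 kept, 577 met them and 570 were shared.

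The 20 genes with the widest margins, taken at 20 CPM or more in kidney, were spread along the whole nephron. The widest belonged to Umod, the urinary protein uromodulin of the thick ascending limb. It read 5840, 4540, 3790, 4590 and 9650 CPM, against at most 6.43 CPM in any other library, and its margin was 12.04 on the log2 scale (SE 2.04, largest adjusted p of its 5 contrasts 7.56e-05). Slc12a1, the loop-diuretic-sensitive NKCC2 transporter of the same cells, followed with 1260, 1830, 809, 1250 and 1190 CPM and a margin of 11.78 (SE 1.4). The others described here were the organic anion transporters Slc22a13 and Slc22a19, the serpin Serpina1f, renin (Ren1), Aqp2, the transmembrane protein Tmem72, the amino acid transporter Slc7a12, the intercalated-cell channel Aqp6, the vasopressin receptor Avpr2, calbindin (Calb1), the thiazide-sensitive transporter Slc12a3, the sulfate transporter Slc13a1, the transcription factors Pax2 and Emx1, the cytochromes Cyp2j11 and Cyp24a1, and the brush-border protease meprin alpha (Mep1a). Emx1 closed the list at 9.67. For Slc22a13, which had no count in the 5 livers, the fold over liver was a bound of at least 10.82 on the log2 scale, taking 3 counts over the group. Skin was the nearest tissue for Avpr2, Slc13a1, Pax2, Cyp2j11, Mep1a and Cyp24a1, and without 4F skin replicate 3 their margins were 10.71, 11.65, 9.94, 11.34, 11.57 and 12.02.

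**Figure D1:**
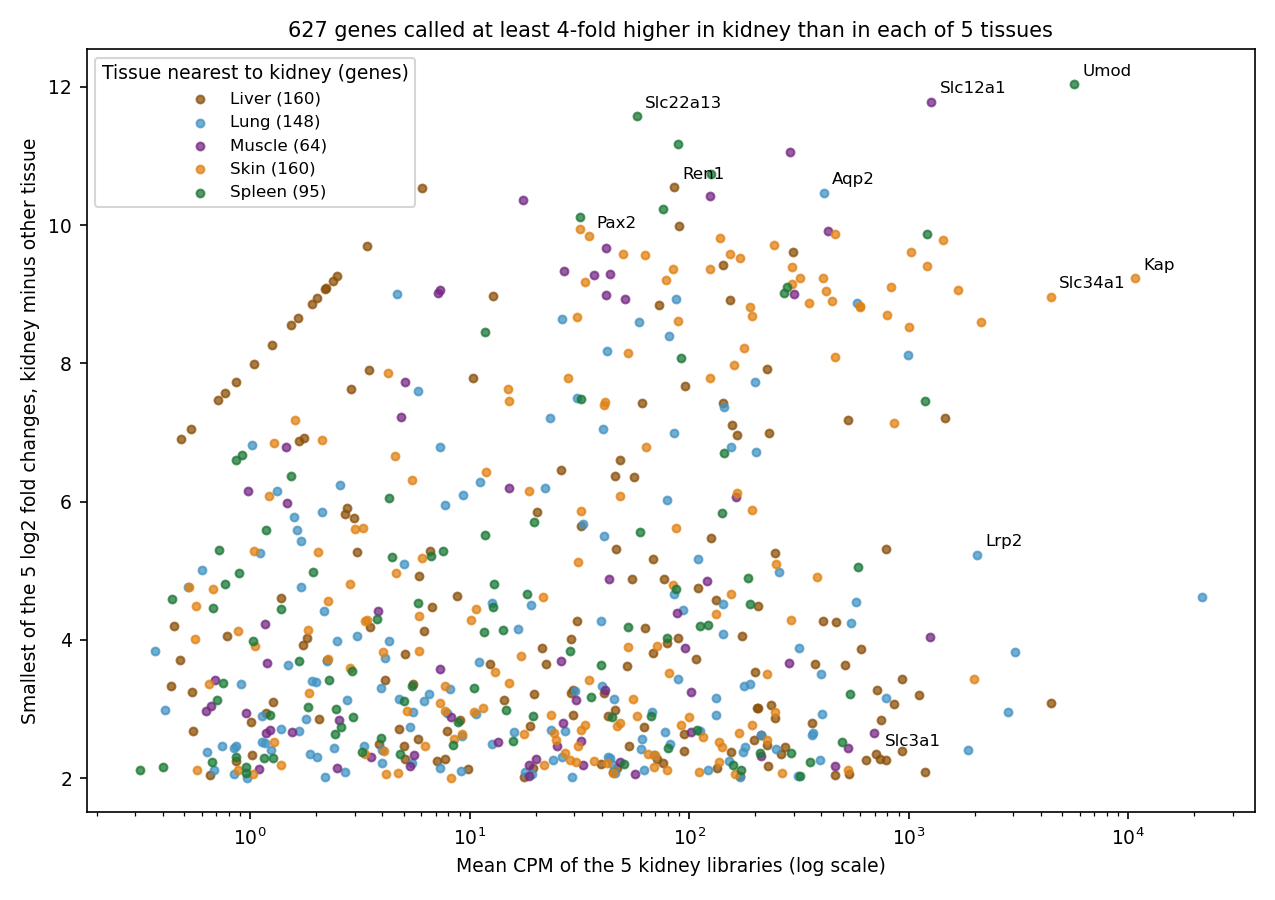
Each point is a gene higher in kidney than in all 5 tissues, with its mean kidney level in CPM (log axis) against its smallest log2 fold change over the 5 tissues, coloured by the tissue that gave it. The 627 genes run from the threshold of 2 up to 12.04 for Umod. Fitted values of genes near 0 in another tissue depend on the prior count and are no bounds.

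Among the regulators described further on is Hnf4a, a nuclear receptor of proximal tubule and liver. An element that HNF4 can bind, CAAAGTCCA, was looked for on both strands in the 250 bases upstream of each start site, from RefSeq on GRCm38.p6. It was found in 73 of 13842 promoters of tested genes (0.527%), in 5 of the 426 with a promoter among the kidney-elevated genes (1.17%), and in 1 of 143 among the genes that kidney shared with liver (0.699%). TATAAA, searched for comparison, was in 9.67%, 14.1% and 14% of the same promoters. A match describes letters only. The stretches printed here show where the element stood in 3 of the 5 elevated genes. Each is 120 bases long, on the gene's strand 5′ to 3′, and the capitals mark the element or its reverse complement.
Slc3a1 promoter, chr17:85028227-85028346, plus strand: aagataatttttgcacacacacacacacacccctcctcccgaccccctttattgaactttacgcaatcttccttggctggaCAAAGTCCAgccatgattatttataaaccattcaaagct
Treh promoter, chr9:44673107-44673226, plus strand: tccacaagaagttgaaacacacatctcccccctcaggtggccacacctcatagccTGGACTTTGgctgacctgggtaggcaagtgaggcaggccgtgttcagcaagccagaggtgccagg
Aadat promoter, chr8:60505997-60506116, plus strand: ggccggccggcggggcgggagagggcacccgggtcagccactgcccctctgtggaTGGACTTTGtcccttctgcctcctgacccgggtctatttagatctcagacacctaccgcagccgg

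In the order printed, the element ended 31, 63 and 64 bases before the start site. Slc3a1 encodes the heavy chain of an amino acid transporter, Treh the brush-border enzyme trehalase and Aadat an aminotransferase of lysine and tryptophan breakdown. Over the 5 kidneys Slc3a1 averaged 712 CPM, Treh 89.3 CPM and Aadat 715 CPM.

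At the glomerulus, 2 of 10 podocyte genes were higher in kidney than in all 5 tissues (3.05% of all genes tested were). Nephrin, Nphs1, which builds the slit diaphragm, read 39.9, 43.3, 23.6, 29.1 and 25 CPM. No other library passed 0.302 CPM, and the margin was 7.48 over spleen (SE 0.83). The remaining 8 did not pass in all 5 comparisons. The sialomucin Podxl read 194 to 363 CPM and was nearest to lung (log2 fold change -0.59, adjusted p 0.132), where capillaries also carry it. The podocyte transcription factor Wt1 was nearest to spleen, at 0.03 (adjusted p 0.982). Of 9 genes of glomerular endothelium, mesangium and vessels none was elevated, and 3 were lower than in lung (14.8% of all genes tested were). Among the 3 was the endothelial adhesion molecule Pecam1, at 70.4 to 93.4 CPM against 554 ± 153 CPM (SD, n = 5) in lung. Against liver, muscle, skin and spleen none of the 9 was called lower. Called higher there were 1, 3, 3 and 2 of the 9, against 13.5%, 17%, 11.7% and 16.4% of all genes tested.

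**Figure D2:**
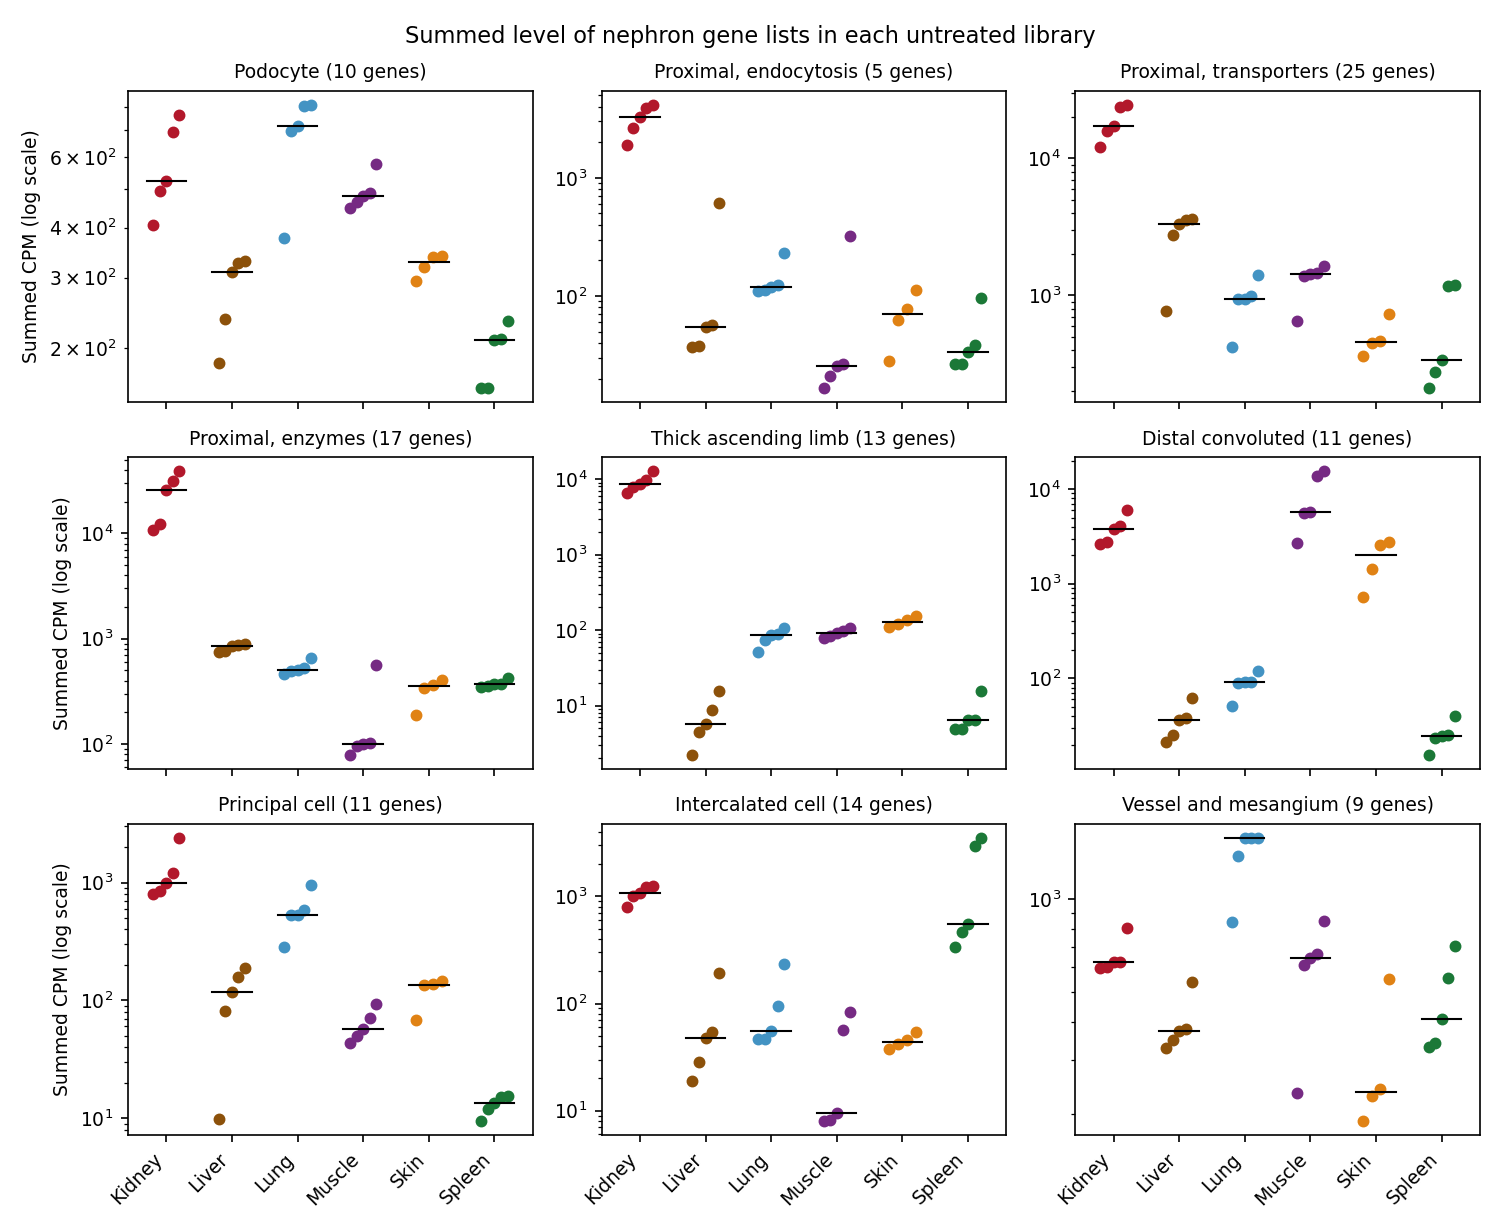
Summed CPM (log axis) of 9 nephron gene lists in the 29 untreated libraries, by tissue, with a line at each median. The kidney points stand above every other library for the proximal transporter and thick ascending limb sums, and overlap other tissues for podocyte, distal, collecting duct and vessel genes.

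Among proximal tubule lists, of 5 genes of protein uptake 3 were elevated: Lrp2, Cubn and Amn, the amnionless subunit that anchors cubilin. Margins were 5.23 for Lrp2 over lung (SE 1.27, adjusted p 0.00135), 8.09 for Cubn and 8.08 for Amn. In the B6 libraries alone the Lrp2 margin of 5.54 did not pass the test (adjusted p 0.0514). The adaptor Dab2 and the endosomal exchanger Clcn5 were higher than in 4 tissues but not called against liver, with log2 fold changes of 1.77 (adjusted p 0.101) and 1.66 (adjusted p 0.045, below 4-fold).

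Of 25 apical and basolateral proximal transporters, 19 were elevated. The sodium-phosphate cotransporter Slc34a1 read 3890, 2530, 6620, 6140 and 3010 CPM, and no other library exceeded 35 CPM. Its margin was 8.97 over skin (SE 2.11, adjusted p 0.00111) and 11.87 without 4F skin replicate 3. The glucose transporter SGLT2, Slc5a2, read 516, 203, 538, 505 and 269 CPM, and the urate transporter URAT1, Slc22a12, 696, 237, 1530, 1650 and 919 CPM. For both, every kidney was above every other library, with margins of 9.24 and 8.53. The organic anion transporters Slc22a6 and Slc22a8, which clear drugs from blood, both had margins of 8.82. Amino acid carriers Slc6a19, Slc6a18 and Slc7a9 had margins of 4.91, 9.62 and 9.58. Slc3a1, the heavy chain that pairs with Slc7a9 and is mutated in cystinuria, was also elevated, but by only 2.34 over liver (SE 0.56, adjusted p 0.0012).

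The 6 proximal transporters outside the set were expressed in kidney but not 4-fold above every other tissue. The fatty acid transporter Slc27a2 read 2340 to 4280 CPM and the glucose transporter GLUT2, Slc2a2, 54.6 to 222 CPM. Against liver their log2 fold changes were 1.32 (adjusted p 0.141) and -1.67 (adjusted p 0.0645). The cation exporter Slc47a1 differed from liver by 0.69 (adjusted p 0.285), and Slc7a8 and Slc17a3 by 1.47 and 1.48, neither called. The water channel Aqp1, found in capillaries as well as the tubule, read 1060 to 1870 CPM and was at 0.15 against muscle (adjusted p 0.795).

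Of 17 proximal enzymes and related proteins, 13 were elevated. Levels of different genes can be compared per kilobase of exon, and on that scale Kap stood at a mean of 15100 CPM per kilobase in kidney, Umod at 2060 and Napsa at 1150. Between Kap and Umod among the elevated genes came Gpx3, the glutathione peroxidase that the proximal tubule secretes into plasma, at 11900 CPM per kilobase. It was added after its values were seen. Gpx3 read 21600, 19700, 25800, 17100 and 23900 CPM, every kidney above the highest other library, a lung at 1620 CPM, and its margin over lung was 4.62 (SE 0.69, adjusted p 1.97e-05). The aspartic protease Napsa read 4210, 5900, 2190, 1670 and 1320 CPM and was 3.83 over lung (SE 0.85), where type II cells also make it. Miox, which opens inositol in the kidney, read 2200, 924, 2660, 1870 and 736 CPM with a margin of 9.05, and Dnase1, the secreted nuclease, 964, 582, 1250, 1090 and 287 CPM with a margin of 9.1. Cltrn, the collectrin that carries amino acid transporters to the brush border, read 1950, 537, 1650, 1230 and 682 CPM, at 9.4 over skin. Skin was nearest for these 3, and without 4F skin replicate 3 the margins were 10.97, 9.52 and 11.33. The call of 2 members was less stable. Keg1 stood at 3.2 over liver (adjusted p 0.0321), and left the set without 4F liver replicate 1 or 2 or B6 kidney replicate 1 (adjusted p 0.0514 to 0.0687). Acmsd, which steers tryptophan away from NAD synthesis, stood at 2.22 over liver (adjusted p 0.02) and did not pass in the 4F, B6 or male libraries alone. Of the enzymes not elevated, the dipeptidase Dpep1 was nearest to lung (0.27, adjusted p 0.73) and the peptidase Anpep and Spp2 to liver (-0.64 and -0.19, neither called).

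In the thin limb list, 2 of 5 genes were elevated, among them the urea transporter Slc14a2, at 22.2, 83.6, 43.9, 30 and 32.2 CPM. In the thick ascending limb, 10 of 13 were. Besides Umod and Slc12a1 these included the potassium channel Kcnj1 (ROMK), the channel subunit Bsnd (barttin), the paracellular cation pores Cldn16 and Cldn19, Egf, the prostaglandin receptor Ptger3 and Tmem207. Kcnj1 read 374, 374, 208, 174 and 221 CPM and had a margin of 9.02. The epidermal growth factor gene Egf read 1550, 909, 1250, 1480 and 1050 CPM and exceeded muscle, the nearest tissue, by 4.04 (SE 0.45). The calcium-sensing receptor Casr was 1.88 over muscle, short of 4-fold, and the patterning factors Irx1 and Irx2 were not called against lung (-0.29, adjusted p 0.659) and skin (-1.17, adjusted p 0.235).

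Of 11 genes of the distal convoluted and connecting tubule, 7 were elevated. The target of thiazides, Slc12a3, read 1600, 1210, 886, 1130 and 1250 CPM and no other library passed 3.38 CPM. Its regulator Wnk4 read 242, 424, 222, 205 and 190 CPM with a margin of 4.98 (SE 0.53). Genes of calcium recovery belonged to this set: the channel Trpv5 (margin 4.67), Calb1 (9.92) and S100g (4.25 over lung, SE 0.98). S100g read 723, 756, 633, 321 and 305 CPM, the B6 kidneys below the 4F kidneys, and tissue kallikrein, Klk1, read 2330, 1040, 1390, 665 and 503 CPM, also lower in the B6 kidneys. Parvalbumin (Pvalb), a marker of the early distal tubule that fast muscle fibres also make in bulk, was 9.17 lower in kidney than in skeletal muscle on the log2 scale. The magnesium channel Trpm6 was not called against lung (-0.17, adjusted p 0.734).

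In the collecting duct, 5 of 11 principal-cell genes and 9 of 14 intercalated-cell genes were elevated. Among principal-cell genes these were Aqp2, Avpr2, Fxyd4, the potassium channel subunit Kcne1 and Hsd11b2, the enzyme that shields the mineralocorticoid receptor from glucocorticoid. Hsd11b2 read 234, 308, 193, 126 and 141 CPM, and its margin was 6.72 over lung (SE 0.79). The 3 subunits of the epithelial sodium channel were expressed in kidney but none was elevated, and lung had more by point estimate. Scnn1a read 144, 328, 126, 106 and 176 CPM against 336 ± 169 CPM in lung, and Scnn1g read 58, 51.9, 47.6, 45.3 and 40.9 CPM against 121 ± 51 CPM (SD, n = 5). The kidney minus lung log2 fold changes were -0.92 for Scnn1a (adjusted p 0.166), -0.51 for Scnn1b (adjusted p 0.422) and -1.29 for Scnn1g, which passed the test (adjusted p 0.00897) at less than 4-fold. The aldosterone receptor Nr3c2 was not called against muscle (-0.11, adjusted p 0.833).

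Intercalated-cell genes in the set included Foxi1, the factor that specifies these cells, the proton-pump subunits Atp6v1b1, Atp6v0a4 and Atp6v1g3, and the ammonia channel Rhcg. Foxi1 read 44.9, 40.3, 33.9, 16.5 and 19.2 CPM with a margin of 8.67, and Rhcg 177, 250, 144, 83.7 and 110 CPM with a margin of 8.92. The chloride-bicarbonate exchanger pendrin, Slc26a4, read 123, 53, 115, 70.5 and 48.8 CPM and its call was weak. Its kidneys overlapped the highest lung library, at 56.5 CPM, the fold over lung was 2.49 (SE 0.92, adjusted p 0.0268), and leaving out 4F kidney replicate 1 or 3, 4F lung replicate 2 or 3, or either B6 lung library moved the adjusted p to between 0.0552 and 0.0649. The exchanger AE1, Slc4a1, which red cells carry in bulk, was 4.59 lower in kidney than in spleen on the log2 scale (adjusted p 0.00374).

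Of 9 tested genes of hormone output and mineral control, 6 were elevated. Renin, Ren1, read 114, 76.7, 73, 48 and 113 CPM, no other library passed 0.196 CPM, and its margin was 10.55 (SE 0.74). Klotho, Kl, the coreceptor for FGF23, read 769, 219, 695, 814 and 405 CPM with a margin of 8.87 (SE 1.24). The enzymes that make and degrade active vitamin D stood at opposite ends in 4F kidney replicate 2. Cyp27b1 read 8.31, 60.3, 10.3, 13.3 and 15.4 CPM and was highest there, and Cyp24a1 read 350, 37.9, 184, 340 and 301 CPM and was lowest there. Both were elevated over all 5 tissues, by 4.62 and 9.72. Erythropoietin, Epo, was too low to test, at 0.0345 to 1.52 CPM. Ace, which lung endothelium carries, was 2.29 lower in kidney than in lung on the log2 scale (adjusted p 0.00026).

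Of 9 genes of the sodium pump, 4 were elevated, among them the beta subunit Atp1b1 and the FXYD regulators Fxyd2 and Fxyd4. Atp1b1 read 3230, 3250, 2890, 2470 and 2350 CPM and Fxyd2, the gamma subunit, 1420, 2050, 1810, 1150 and 887 CPM, with margins of 2.95 and 7.22.

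Of 27 transcription factors of kidney development and tubule identity, 11 were elevated. Pax2 and Pax8, paired-box factors of the nephric lineage, read 22.1 to 49.1 and 73 to 125 CPM and had margins of 9.84 and 7.67. Lhx1 had a margin of 8.64, Emx1 of 9.67 and Tfcp2l1, a collecting-duct factor, of 3.51. Hnf4a was not called against liver, at 0.12 (adjusted p 0.922). It read 670, 439, 742, 1080 and 702 CPM against 650 ± 207 CPM in liver. Esrrb was just inside the set, at 2.06 over muscle, and dropped to 1.74 without 4F kidney replicate 2 and to 1.88 to 1.98 without 4F muscle replicate 3 or either B6 muscle library.

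Claudins, which set what passes between tubule cells, were elevated in 5 of 15 cases on the list: Cldn2, Cldn8, Cldn10, Cldn16 and Cldn19. Cldn10 read 189, 191, 214, 172 and 125 CPM with a margin of 3.33 over lung (SE 0.64), and Cldn8 120, 83.5, 77.3, 73 and 74.6 CPM with 4.67. Cldn2, the cation and water pore of the proximal tubule, read 755, 573, 608, 567 and 677 CPM, above the highest liver at 180 CPM. Its fold over liver was 2.26 (SE 0.89, adjusted p 0.0409), and leaving out any 1 kidney or any 1 liver library took the adjusted p to between 0.0516 and 0.0723. Cldn1, Cldn5 and Cldn18 lay lower in kidney than in skin (by 2.8), lung (by 4.29) and lung (by 10.4).

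None of 8 genes of gluconeogenesis was called in either direction against liver, whereas 7 were higher than in lung, 6 than in muscle, 7 than in skin and 7 than in spleen. Against liver, 13.5% of all genes were called higher and 8.95% lower. Over all genes, 10.7% were higher than in lung, 17% than in muscle, 11.7% than in skin and 16.4% than in spleen. Fructose-1,6-bisphosphatase, Fbp1, read 1170, 643, 1400, 1040 and 726 CPM against 1300 ± 710 CPM in liver (SD, n = 5). The rate-limiting Pck1 read 2790, 1300, 2470, 964 and 1060 CPM against 5890 ± 3360 CPM, and G6pc, which releases free glucose, 707, 223, 600, 373 and 289 CPM against 1140 ± 1000 CPM. The liver values were wide, and the summed liver markers ran from 46100 to 209000 CPM over the 5 livers. How much of each gene's spread came from B6 liver replicate 2, which stood apart from the others, was not tested. Without that library Pck1 was 2.08 lower in kidney than in liver (adjusted p 0.0461, against -1.82 and 0.0801 with it), the only one of the 8 called, and Fbp1 stood at -0.67, not called.

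Of 22 genes of amino acid metabolism, 3 were elevated in kidney over all 5 tissues: Gatm, which makes the creatine precursor, Dao and Acmsd. Gatm read 1080, 131, 674, 639 and 188 CPM and its margin was 3.22 over spleen (SE 0.62). Dao, which oxidises D-amino acids, read 322, 245, 443, 331 and 259 CPM at 9.24 over skin. The partner of Gatm that completes creatine, Gamt, was 4.33 lower in kidney than in liver. In all, 9 of the 22 were lower than in liver and 5 higher (8.95% and 13.5% of all genes tested were). The urea cycle genes Arg1 and Otc were nearly absent from kidney, at no more than 1.38 and 0.141 CPM, while Ass1 and Asl read 130 to 478 and 148 to 230 CPM. These counts were the same without B6 liver replicate 2.

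Of 18 fatty acid oxidation genes, 2 were higher and 3 lower than in liver, 13 were higher than in lung and 15 than in spleen. Over all genes, 13.5% were higher and 8.95% lower than in liver, 10.7% higher than in lung and 16.4% higher than in spleen. All 20 genes of the respiratory chain and ATP synthase list were higher than in lung and 11 higher than in spleen. Against liver 1 was higher, against skin 1 higher and 1 lower, and against muscle 1 higher and 1 lower. Over all genes, 11.7% were higher and 11.7% lower than in skin, and 17% higher and 9.74% lower than in muscle. The counts of this list against liver, skin and muscle were not above the shares over all genes. Without the fold limit, 14 of the 20 were lower than in muscle, where the median log2 fold change was -0.87 against 0.03 over all genes. The share of all genes lower than in muscle without the fold limit was not counted. Atp5b read 2400, 2080, 2740, 2650 and 1870 CPM, 0.75 below muscle (adjusted p 0.0212, under 4-fold). The muscle isoform Cox7a1 was the member called lower, by 4.35.

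**Figure D3:**
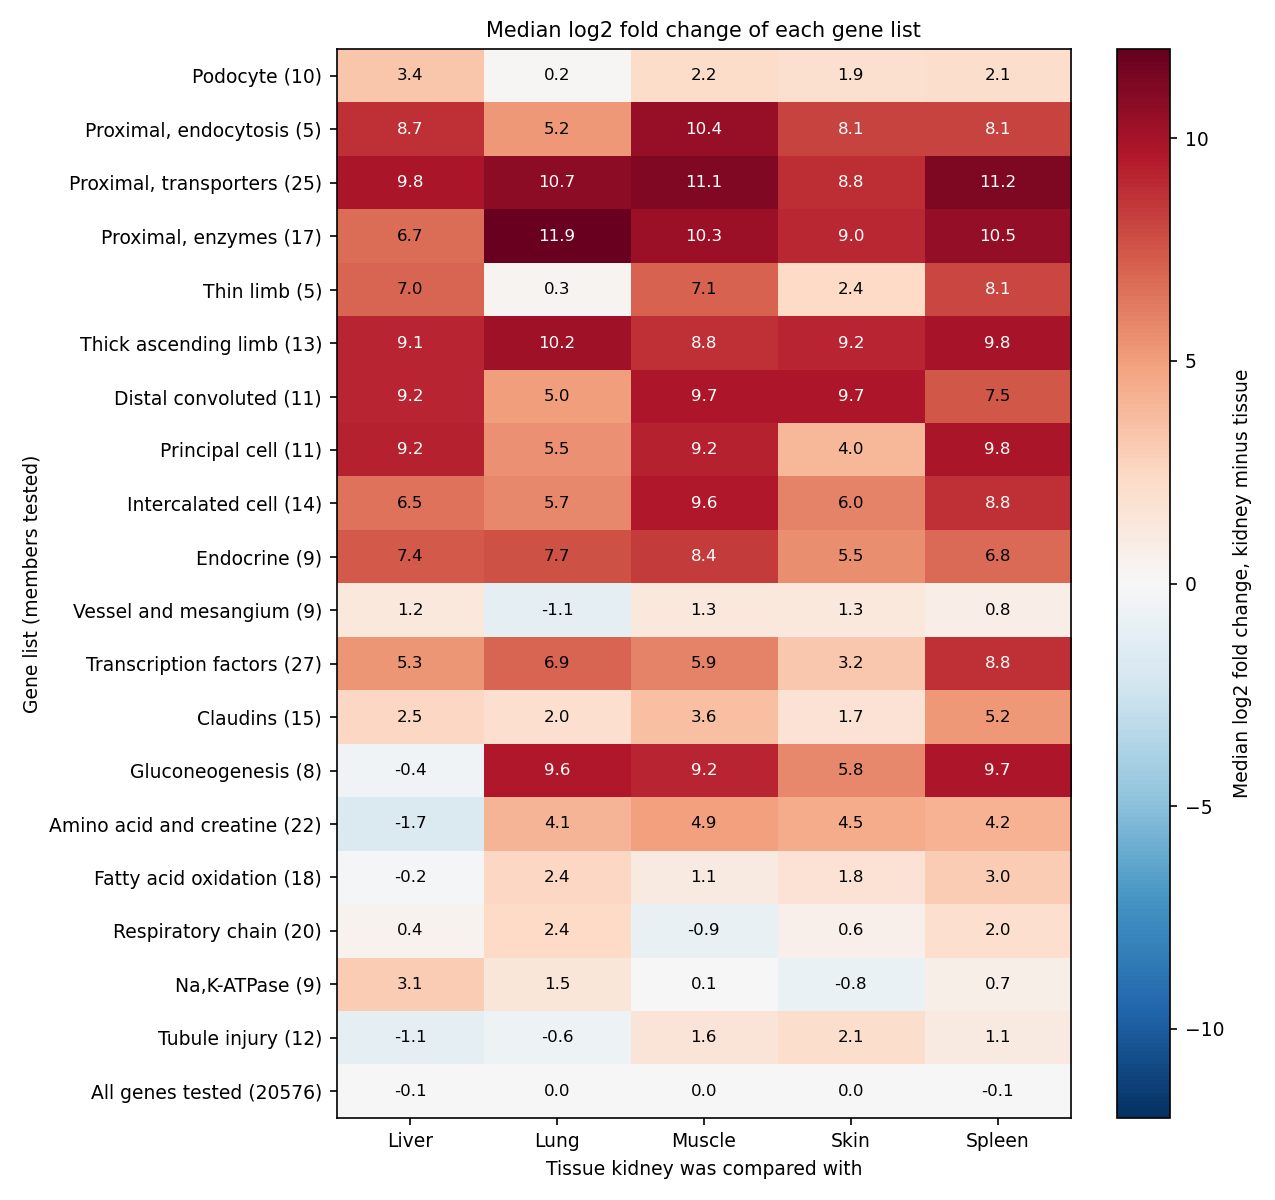
Median log2 fold change (kidney minus tissue) of the tested members of each gene list, with genes of at most 3 counts in a tissue set to their bound. Proximal transporters run from 8.82 against skin to 11.19 against spleen, gluconeogenesis from -0.41 against liver to 9.68 against spleen, and all genes tested lie within 0.1 of 0.

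A gene was taken as shared with a tissue when it was called higher in kidney than in the other 4 and differed from that tissue by less than 2-fold, which is a limit on size and not a test of equality. Liver shared 204 genes (0.991%), lung 89 (0.433%), skin 49 (0.238%), spleen 21 (0.102%) and muscle 11 (0.0535%). Among the most abundant shared with liver were Fbp1, the deaminase Rida and the epoxygenase Cyp2j5. Rida read 1490, 608, 1280, 585 and 557 CPM, against 1230 ± 771 CPM in liver.

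With lung, kidney shared the epithelial keratin Krt7, the membrane carbonic anhydrase Car4, Prr15l, the cholecystokinin receptor Cckar and the polarity scaffold Patj. Car4 read 82.6, 140, 175, 112 and 102 CPM, against 91.7 ± 28.2 CPM in lung. With muscle it shared Ppargc1a, the coactivator of mitochondrial genes, at 109, 91.2, 79.4, 95.5 and 94 CPM against 55.4 ± 12.2 CPM, together with Hoxa10, the exchanger Slc9a2, Sim1 and Sim2. With skin the most abundant were Susd2, the anchoring-filament protein Lad1, Celsr2, Nccrp1 and the elongase Elovl7. With spleen they were Cyfip2, the red-cell membrane protein dematin (Dmtn), Prr5, Depdc1b and Olfm4. Dmtn read 186, 190, 179, 177 and 144 CPM, against 44.3 to 450 CPM over the 5 spleens. The membership of Patj, Slc9a2, Cyfip2 and Olfm4 changed when 1 library was left out: the smallest fold of the first 3 over the other 4 tissues then fell below 4, to 1.95 for Patj without B6 skin replicate 1, to 1.79 for Slc9a2 without B6 skin replicate 2 and to 1.8 for Cyfip2 without 4F kidney replicate 2. For Olfm4 the adjusted p rose to between 0.0522 and 0.0603 without 4F kidney replicate 3, 4F lung replicate 1, 2 or 3 or B6 lung replicate 1.

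A set of 71 genes (0.345%) was lower in kidney than in all 5 tissues. The 6 with at least 20 CPM in the lowest other tissue were hexokinase 2 (Hk2), Serpina3n, the interleukin-6 receptor Il6ra, the hyaluronan receptor Cd44, the cytokine receptor subunit Csf2rb2 and the cationic amino acid carrier Slc7a2. Hk2, the first glycolytic step in muscle and dividing cells, read 1.5, 2.62, 2.77, 5.36 and 3.34 CPM, against 509 ± 126 CPM in muscle and 21.8 ± 2.7 CPM in spleen, where the difference was smallest (log2 fold change -2.8, adjusted p 0.00105). Slc7a2 read 7.92, 3.86, 4.41, 10.6 and 11.6 CPM against 658 ± 277 CPM in liver. Without B6 liver replicate 2 the set shrank to 45, and Hk2, Cd44 and Csf2rb2 left it. Leaving out another single library also ended calls. Serpina3n stood at -1.41 (adjusted p 0.0921) and Il6ra at -1.78 without 4F muscle replicate 2, and Cd44 at -0.41 and Csf2rb2 at -1.27 without 4F muscle replicate 3. Slc7a2 stood at -1.91 to -1.99 without 4F kidney replicate 2 or 3 or 4F spleen replicate 2. The call of Csf2rb2 was lost without any of 11 libraries. All 6 lost the call in the treated libraries and in the B6 libraries alone.

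By RNA class, 486 of 16324 tested protein-coding genes were elevated (2.98%), 69 of 818 lincRNAs (8.44%) and 38 of 672 antisense genes (5.65%). The strand setting of the counting is not given in the sources used here, so reads of an antisense gene and of its partner may not be told apart. By family name, solute carriers contributed 55 of 347 tested (15.9%) and claudins 7 of 20 (35%), and keratins 0 of 33. Of the 486 elevated protein-coding genes, 106 (21.8%) lay within 100 kb of another, and 9 clusters of at least 3 held 32 of them. Of the 15838 other tested protein-coding genes, 1525 (9.63%) had an elevated one within 100 kb. On GRCm38, the tissue kallikrein cluster chr7:44112673-44246695 held Klk1, Klk1b3, Klk1b5, Klk1b22 and 1700028J19Rik, and chr6:85732513-85832082 held the N-acetyltransferases Nat8, Nat8f3, Nat8f5 and Nat8f6. Atp6v0a4 lay beside Svopl, Tmem213 and D630045J12Rik at chr6:37983739-38254009, and Hoxd3, Hoxd4 and Hoxd10 at chr2:74691924-74748442. Members of the Klk1b and Nat8 families are close copies of each other, so counts could be split between them.

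The 5 kidneys were not alike in the levels of segment genes. In 4F replicate 2, 19 of 25 proximal transporters, 12 of 17 proximal enzymes and 4 of 5 uptake genes were at their lowest, while 7 of 11 principal-cell genes and 8 of 13 thick ascending limb genes were at their highest. For these counts, and those of B6 replicate 2 below, the share over all tested genes was not counted. Summed thin limb genes came to 453 CPM in that kidney against 100 to 142 CPM in the other 4, principal-cell genes to 2390 CPM against 805 to 1200 CPM, and uptake genes to 1890 CPM against 2610 to 4150 CPM. The same library was highest for plasma and B-cell genes, at 6080 CPM against 2150 to 3130 CPM, and for glomerular and vascular genes, at 805 CPM against 599 to 627 CPM. The part of these levels in the segment differences was not tested. In the 2 treated 4F females, proximal transporters summed to 16600 and 15100 CPM, principal-cell genes to 1390 and 1420 CPM and thin limb genes to 199 and 314 CPM.

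B6 replicate 2 stood apart in another way. A list of 12 genes associated with tubule injury summed to 8130 CPM there against 1280 to 2980 CPM in the other 4. Most of the 8130 CPM came from 1 gene, osteopontin (Spp1). Of the 12, 6 were at their highest in this kidney, 4 in 4F replicate 2 and 2 in 4F replicate 1. Spp1 read 6430 CPM against 809 to 2230 CPM, complement C3 1010 CPM against 35 to 114 CPM, and lipocalin 2, Lcn2, 139 CPM against 5.4 to 34.3 CPM. The progenitor factor Sox9 read 17.5 CPM against 1.14 to 2.73 CPM and the adhesion molecule Vcam1 69.7 CPM against 13.9 to 30.3 CPM. The classic injury marker KIM-1, Havcr1, was highest elsewhere, at 42.5 CPM in 4F replicate 1 against 13.4 CPM here. In this kidney proximal enzymes summed to 10700 CPM, the lowest of the 5, the respiratory chain genes were lowest for 16 of 20, and Umod was highest. Leaving out 4F replicate 2 gave 597 kidney-elevated genes and leaving out B6 replicate 2 gave 611. Without each of the other 3 kidneys in turn the number was 578 to 596.

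**Figure D4:**
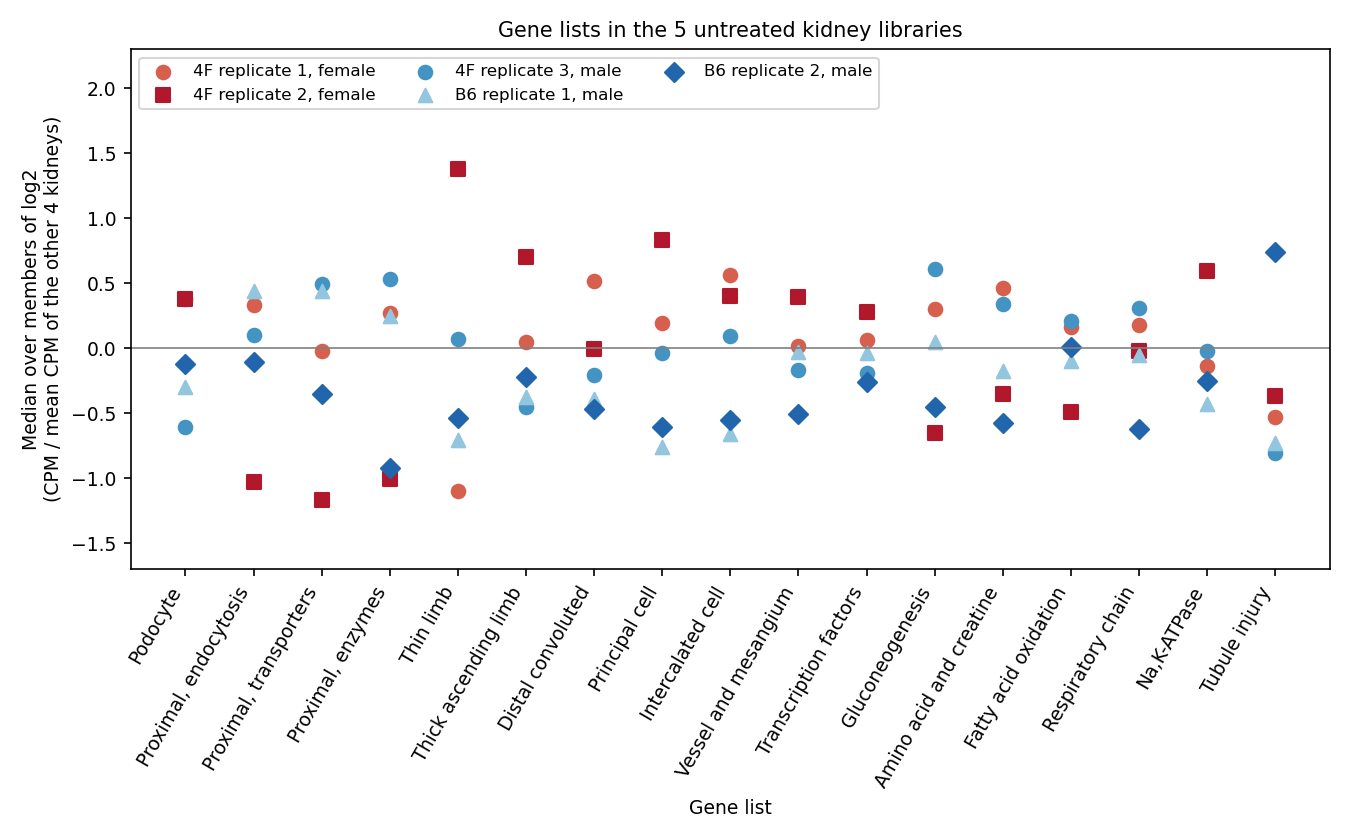
For each gene list and each of the 5 untreated kidneys, the median over members of the log2 ratio of its CPM to the mean of the other 4 kidneys. 4F replicate 2 lies below the rest for proximal lists and above them for thin limb and principal-cell lists, and B6 replicate 2 lies above them for tubule injury.

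Sex was compared within the 4F kidneys, 2 females against 1 male, so a gene's male level rests on 1 library and the B6 males serve as a side-by-side value. The spread came from a fit over all tissues and strata, in which the lone male is assumed to vary like the other groups. The strain contrast rests on the same 4F male. For both contrasts, the unadjusted counts given below are under the 0.05 of 20576 genes that would pass if no gene differed. Few calls are therefore no measure of likeness. At an adjusted p under 0.05 with no fold limit, 5 genes were lower in females (0.0243%) and 0 were higher (0%). At an unadjusted p under 0.05 there were 255, and DESeq2 called 11 higher and 7 lower. In the treated kidneys the same contrast called 66 higher and 188 lower, and why the counts differ was not tested. Of the 5, 4 were the Y-linked genes Ddx3y, Eif2s3y, Kdm5d and Uty, which had 1 count in all over both females. The remaining gene was Slc7a13, the aspartate, glutamate and cystine transporter of the late proximal tubule. It read 2.61 and 0.793 CPM in the females, 892 CPM in the 4F male and 945 and 401 CPM in the B6 males, and the female minus male log2 fold change was -9.02 (SE 0.99, adjusted p 0.00468). Without 4F kidney replicate 1 the difference was -10.14 (adjusted p 0.0593), and without replicate 2 it was -8.42 (adjusted p 0.162). In the treated kidneys the females read 2.97 and 1.61 CPM and the males 892, 844 and 933 CPM.

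Other genes had levels that separated by sex without passing that test. Cyp2j13 read 0.765 and 1.14 CPM in females against 362 CPM in the 4F male and 369 and 69.5 CPM in the B6 males (adjusted p 0.228). The organic anion transporter Slco1a1 read 0.0247 and 0 CPM against 122, 260 and 14 CPM (adjusted p 1), and Cyp4b1 375 and 244 CPM against 3570, 3980 and 1180 CPM. The growth factor gene Igf2 was the reverse, at 263 and 277 CPM in females and 2.96, 2.32 and 2.21 CPM in males. Its 4F contrast missed the threshold (adjusted p 0.24), and against the mean of both male strata it passed (log2 fold change 6.68, adjusted p 0.0048), one of 7 genes higher and 6 lower in that wider contrast. Slc17a2, a relative of the phosphate transporters, read 18.2 and 17.1 CPM in females against at most 0.243 CPM in males (adjusted p 0.0101 against both male strata). Treated females also read Igf2 high, at 430 and 478 CPM against 1.56 to 2.44 CPM. Of the others higher in the wider contrast, Slc17a2, Greb1 and Xist were also above all treated males in both treated females. Gm14165, Rplp0-ps1 and Gm5948 were not. They read at least 2.72, 11.6 and 2.21 CPM in untreated females and at most 0.129, 0.0401 and 0 CPM in treated females. All females were 4F, so strain enters the wider contrast. Kap did not separate cleanly, since 1 female read 9720 CPM and 1 male 3040 CPM. Greb1, an oestrogen-responsive gene, belonged to the kidney-elevated set, but it read 20.1 and 19.3 CPM in females and 0.545 to 0.637 CPM in males, and in male libraries alone its smallest log2 fold change was -0.32. Between B6 and 4F males 0 genes (0%) differed at an adjusted p under 0.05, with 148 at an unadjusted p under 0.05 and 2 called by DESeq2.

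**Figure D5:**
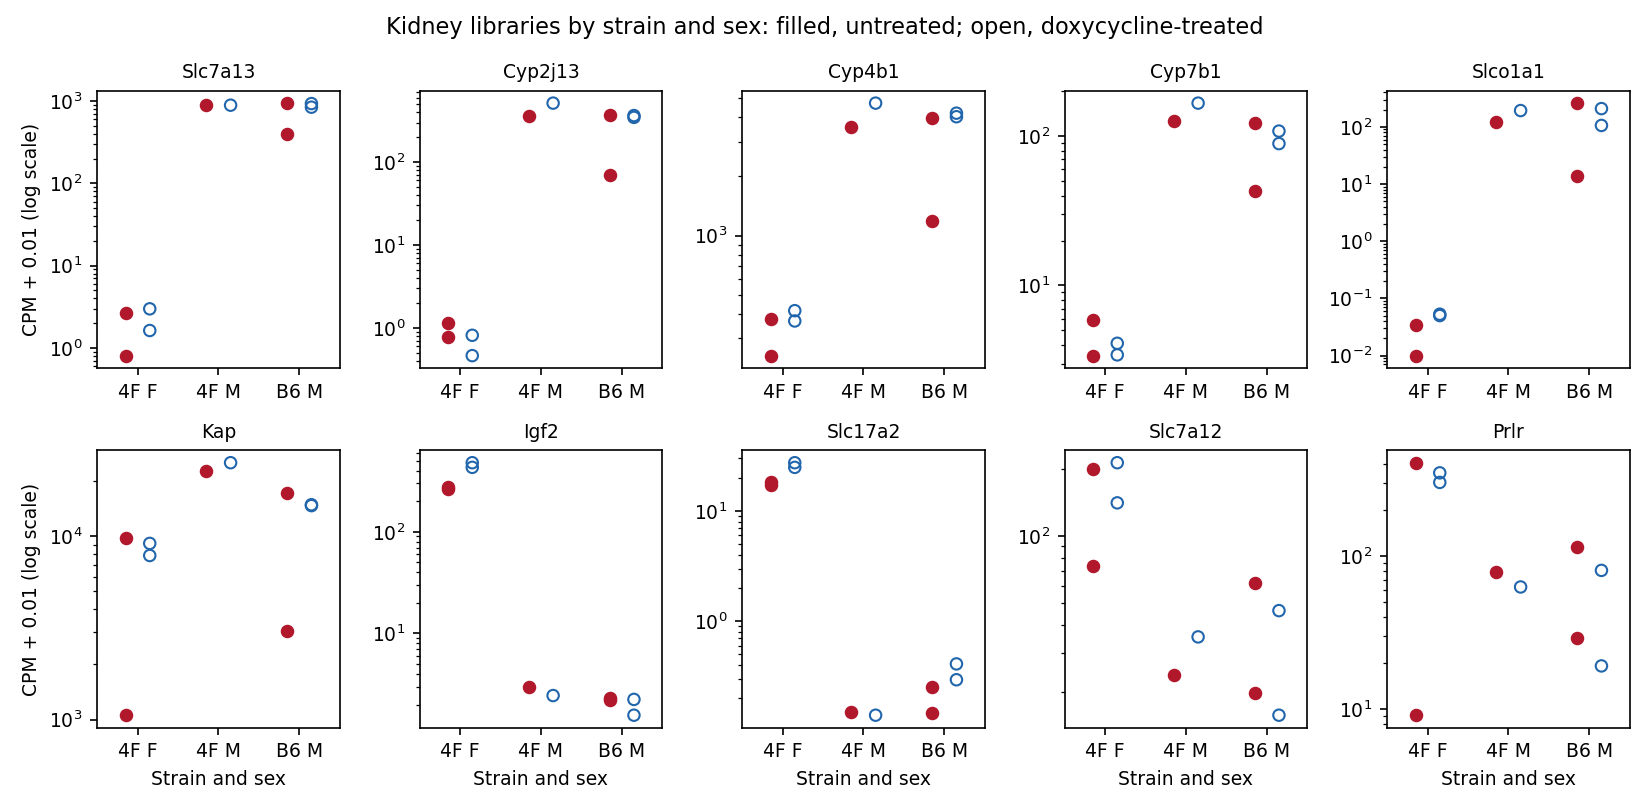
CPM (log axis) of genes compared between the sexes in the 10 kidney libraries, with females and males and treated and untreated libraries marked. Kap and Prlr overlap between the sexes. Females read 1060 to 9720 CPM of Kap and 9.14 to 408 CPM of Prlr, and males 3040 to 25100 and 19.2 to 115 CPM. Slc7a13 lies at 0.793 to 2.97 CPM in females and 401 to 945 CPM in males, and Igf2 at 263 to 478 CPM in females and 1.56 to 2.96 CPM in males.

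The 30 doxycycline-treated libraries, which did not enter the calls above, gave a separate set of kidneys for the same comparison. There 617 genes were elevated over all 5 tissues, of which 538 were also in the untreated set, 85.8% of the untreated and 87.2% of the treated set. The 627 genes took 14.8 to 17.9% of the scaled counts in treated kidneys. Of the depleted genes, 20 were in both sets, 28.2% of the 71 untreated and 37% of the 54 treated ones. In untreated 4F libraries alone 595 genes were elevated, 524 of them in the full set (83.6% of the full set and 88.1% of the other), and in untreated B6 libraries alone 386, of which 356 were in the full set (56.8% and 92.2%). With males alone 577 genes were elevated, 527 of them shared (84.1% and 91.3%).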

How the data were processed

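RNA was extracted with RNeasy and libraries were made with a stranded total RNA kit, per the labels' protocols. The authors deposited raw read counts per gene for 60 libraries on GRCm38, per the submitters' processing notes; the aligner, the read counter, the strand setting and the annotation were not given in those sources. Symbols came from GENCODE vM21, which matched 52489 of 52636 gene IDs. The members, gene lists and tests were chosen with earlier results of these data known. From the deposited counts, 29 untreated libraries were fitted in edgeR 4.0.16 (R 4.3.3; filterByExpr with a count minimum of 10 and a total minimum of 15, TMM, robust quasi-likelihood) with tissue as the only term, leaving 23 residual degrees of freedom; p-values were adjusted by Benjamini and Hochberg over 20576 genes. A call needed an adjusted p under 0.05 and a fold of at least 4. Sex and strain within kidney came from a fit of tissue by stratum (4F female, 4F male, B6 male) with 11 residual degrees of freedom, called by adjusted p alone. Printed CPM use TMM factors over all 60 libraries. Folds against a tissue with no count were bounded at 3 counts over the group, which covers counting error only. The genes named were the 20 kidney-elevated genes of widest margin with at least 20 CPM, depleted genes with at least 20 CPM in the lowest other tissue, the most abundant members of each list and those outside its majority, the 5 most abundant genes shared with each tissue, and genes called by sex; other list members, Gpx3, Treh, Aadat and sex-separated genes were named after their values were seen. DESeq2 1.42.0, other scalings, filters and folds, subsets by strain and sex, the treated libraries, a block by library number and each library left out in turn were tried as alternatives. Scripts were tested on simulated data. 4F skin replicate 1 was left out by the rule for choosing libraries. Some genes that met these rules are not reported here.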

Additional observations from a re-analysis of the deposited data

Results flagged for a closer look

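In 87 groups of 5 kidney values, 56 named genes and 31 summed lists, 11 had 1 library whose gap to the nearest other exceeded 0.71 of the range (Dixon's test at 95%). Chance flags about 1 in 20 such groups, and genes of a segment are not independent of each other.

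Of the 11, 8 were high values in 4F kidney replicate 2. The genes were the water channel Aqp2 at 1050 CPM, the keratin Krt7 at 223 CPM, Sim2 at 34.1 CPM and Nccrp1 at 309 CPM. The summed lists were thin limb at 453 CPM, principal cell at 2390 CPM, glomerular and vascular at 805 CPM and plasma and B cell at 6080 CPM. The organic anion transporter Slc22a19 stood out at 261 CPM in 4F kidney replicate 1. In B6 kidney replicate 2, the tubule injury sum was high at 8130 CPM and Dmtn was low at 144 CPM.

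In the skin library that was left out, 4F skin replicate 1, the 627 kidney-elevated genes took 2.32% of the scaled counts, against 0.359 to 0.506% in the 4 skin libraries used.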

How the results depend on the processing

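Counts limit what is said of genes near 0 outside the kidney. In the B6 libraries alone, 1546 genes were higher than in liver, 1293 than in lung and 1407 than in skin, and 779, 1284, 1580 and 1539 were lower than in liver, lung, skin and spleen; 386 were elevated, 8 depleted, and 123, 46, 3, 20 and 7 shared with liver, lung, muscle, skin and spleen. With a log2 fold minimum of 1, lower than liver came to 3020, lower than muscle 3743, lower than spleen 4594, higher than lung 3881, than skin 3691 and than spleen 5202, elevated 953, depleted 152, and shared 411, 196, 62, 113 and 63. With a minimum of 3 these were 1182 lower than liver, 1924 than lung and 1275 than muscle, 1341 higher than lung and 2222 than spleen, 397 elevated, 19 depleted, and 111, 44, 4, 16 and 9 shared. Library totals gave 1265 lower than muscle, 38 depleted and 7 shared with muscle. Depleted genes numbered 38 in 4F, 40 in male libraries and 35 without 5 libraries that stand apart; male libraries shared 6 with muscle, and treated libraries 29 with skin and 33 with spleen. By sex, DESeq2 called 11 higher and 18 in all, treated libraries 66 higher, 188 lower and 254 in all, no filter 1 higher, and all males as the reference 7 higher and 13 in all. By strain DESeq2 called 2, and treated libraries 6 lower.

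Leaving out each library in turn gave 2613 to 3325 genes higher and 1497 to 1911 lower than liver, 1955 to 2291 and 2845 to 3126 for lung, 3350 to 3713 and 1872 to 2058 for muscle, 2279 to 2486 and 2294 to 2459 for skin, and 3242 to 3470 and 2837 to 3094 for spleen. Elevated genes ran from 578 to 664, depleted from 45 (without B6 liver replicate 2) to 76, and shared from 190 to 211, 83 to 93, 8 to 14, 44 to 55 and 18 to 25. By sex, 3 to 4 were lower and 0 higher; without 4F kidney replicate 3 there is no male in 4F. Of 5580 alternative values for 140 single-gene results, 5408 kept direction and call, 170 lost the call and 2 changed sign: Greb1 read -0.76 in B6 and -0.32 in male libraries. Leaving out 4F skin replicate 3 or B6 liver replicate 2 was chosen for closer description after seeing the data. Library numbers run in sets of 6, 1 of each tissue, but no label says that a set shares an animal. With the set as a replicate block, a fit added after seeing the data, 642 genes were elevated and 59 depleted, and Il6ra, Cd44, Acmsd and Greb1 were under 4-fold. Deviations from tissue means had r over 0.1 in 42 of 70 pairs of libraries within a set (median 0.13, against -0.03 between sets), and 24 of 29 libraries were closest to their own set.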
